A study of Mus musculus with 8 samples.

Results

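Kif1a, Kif17, Map1a and Map1b hold 28 of the 2055 differentially methylated sites in the authors' deposited table, and all rows with 1 of these 4 gene names were taken. Kif1a has 15 sites, Map1b 10, Kif17 2 and Map1a 1. The sites come from scDART-seq of dissociated mouse cortex, an assay in which APOBEC1-YTH, a cytidine deaminase joined to a reader domain for N6-methyladenosine (m6A), turns a C beside a methylated A into U. The aged group is 8 libraries, 4 lanes of each of 2 sublibraries, from APOBEC1-YTH mice that were 12 to 14 months old when tamoxifen began, at 20 mg/kg every 24 h for 5 days, with tissue taken 7 days after the last dose. The lanes are not separate animals, and neither the number of mice nor the promoter that drives the transgene is stated in the sources read for this account. The young cells come from another series, whose libraries were not analysed here, and are known only by the values in this table. Their age, treatment and kit are likewise unstated.

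The table pools 2623 young and 846 aged cells and gives no value per mouse or library, so no comparison between the ages has a replicate error and none was tested here. It gives no read depth either, and the number of cells sets the precision. All values by age are the authors' pooled values or were computed from them. Each share of methylated cells printed with a range in parentheses has the exact Clopper-Pearson 95% interval there, for counting error alone. A cell with no read at a site counts as unmethylated, so that fewer cells of a type, less RNA per cell, lower coverage and less methylation cannot be told apart in a share. The table lists only sites with an adjusted p under 0.05 in the authors' own test, which is not described, and the smallest absolute log2 ratio of the mean in it is 0.58. A count of members in the table is therefore no measure of how often these genes differ between the ages. The median listed site had 30 methylated young and 21 methylated aged cells, against 20 and 18.5 at the 28 kinesin and MAP1 sites. The table lists sites and not expression, so the tissue could not be checked by marker levels. Of the marker genes fixed for each cell type, 6 of 10 for neurons, 1 of 6 for astrocytes, 1 of 6 for oligodendrocytes, 0 of 6 for microglia and 0 of 4 for endothelium have a listed site. Which genes could have been listed is unknown, so these counts do not show the make-up of the cells.

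Kinesins are motor proteins that walk along microtubules with ATP and carry cargo through axons and dendrites, and MAP1 proteins bind microtubules and steady them. m6A is laid down on the A of short sequence contexts in RNA by a nuclear methyltransferase, is found most often near stop codons and in long internal exons, and affects the stability, splicing and translation of a transcript. In neurons, m6A has been tied to RNA transport into axons and dendrites and to translation near synapses.

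The bases around the sites that carry the values below were read from GENCODE M21 transcripts (GRCm38, the build called mm10), 10 bases to each side, 5' to 3' on the transcript's strand, with T for U. The last of the 3 capitals is the edited C, and the first 2 are the bases before it. The first group is shown because it holds the sites with the highest mean C-to-U in aged cells, the second because its sites were lower in aged cells or lie beside a site of the first group.
Kif1a, chromosome 1, position 93055713: cagaggtgAACgaggaggaag
Kif1a, chromosome 1, position 93073846: aggcagtgAACgagccgactc
Kif1a, chromosome 1, position 93078807: cccaaggaGACacccaagagc
Map1b, chromosome 13, position 99433350: cggaagagGACggggaagaca
Map1a, chromosome 2, position 121300427: gctagccaAACgggaggaggt
Second group, Kif1a, chromosome 1, position 93054341: gagacacgACCcttccccagg
Kif1a, chromosome 1, position 93073842: agtgaacgAGCcgactccaca
Kif17, chromosome 4, position 138277999: ggactcgaAGCtgacccgact
Kif17, chromosome 4, position 138278003: tcgaagctGACccgactgctt
Map1b, chromosome 13, position 99433336: gaagacaaTGCgagcgggagt
Map1b, chromosome 13, position 99421522: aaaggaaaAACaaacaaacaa

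Each of the 5 sites of the first group has AAC or GAC at the edited C. The Kif1a sites at 93055713 and 93073846 share the 9 bases GTGAACGAG, the longest run around the edited C shared by any pair of the 28 sites. Of the 28 edited C, 20 follow an A (71.4%), against 75.3% of the 2049 listed sites placed on a transcript. AAC stands at 11 sites, GAC at 8, ACC at 3, AGC and TGC at 2 each, and ATC and TAC at 1 each. AAC or GAC was thus found at 19 sites (67.9%), against 69.6% of all placed sites and 11.8% of the 9514 C in the 4 transcripts that carry the sites. ACG, which overlaps AAC and GAC, was found at 7 sites (25.0%), against 21.6% of all placed sites and 2.20% of the C in those transcripts. All 7 lie in coding sequence. Of the 23 sites of the 4 genes in coding sequence 30.4% had ACG, against 40.9% of all listed coding sites. For an A before the C these rates were 69.6% and 80.1%, and for AAC or GAC 69.6% and 77.5%. Among coding sites each rate was thus below that of the table, which was not tested. Only the transcript strand was searched. The 41 bases around each site occur in no other gene's annotated transcripts, and no other annotated gene lies over any of the 28 positions.

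By mean C-to-U over all cells, 10 of the 28 sites were higher in aged cells and 18 lower, where 41.5% of all listed sites were higher and 58.5% lower. By share of methylated cells, 23 of the 28 were higher, where 75.4% of all listed sites were. By C-to-U within methylated cells, 6 of the 27 sites with a methylated aged cell were higher, where 31.9% of all such sites were. Both parts were higher at 6 of the 28 sites (21.9% of all listed sites), and 13 had a lower mean although more cells were methylated (35.3% of all listed sites). C-to-U within methylated cells is not a deposited value. It was computed as the mean divided by the share, so that the mean is the product of both parts. Of the 23 sites with a higher share 6 were also higher within cells. The others had a larger share of methylated cells with less C-to-U within them on average. This was the most common pattern among these sites and in the whole table. There 1550 of the 2055 listed sites had a higher share, and 451 of those had both parts higher. The intervals of the share lay apart and higher in aged cells at 15 sites, where 47.4% of listed sites did so, and apart and lower at 3, where 15.1% did. Of the 28 sites 23 are coding (82.1%, against 39.1% of all listed sites), and coding sites of the table were higher more often, 57.8% by mean and 94.7% by share. Of the 23 coding sites of the 4 genes 10 were higher by mean and 20 by share, so that both counts were below the rate of coding sites in the table, while the count by share over all 28 sites was above that of all listed sites. None of these differences was tested.

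**Figure D1:**
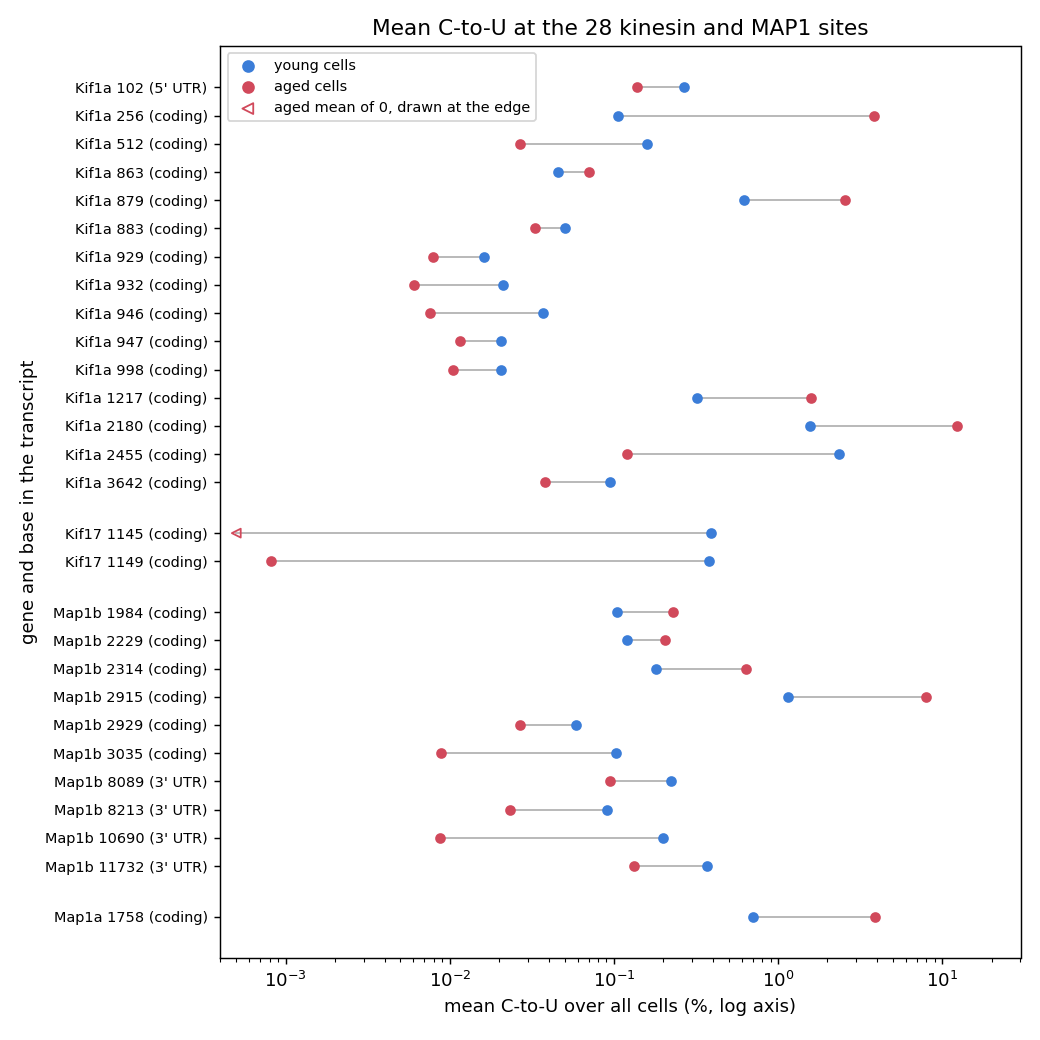
Mean C-to-U over all cells (percent, log axis) at each of the 28 sites, named by gene, base in the transcript and region, with young cells in blue and aged cells in red joined by a line. The means have no error bars because the table holds 1 value per age. The highest aged means are at Kif1a 2180 (position 93055713), Map1b 2915 (99433350), Map1a 1758 (121300427) and Kif1a 256 (93078807), and both Kif17 sites are far lower in aged cells, the first with an aged mean of 0 drawn as an open triangle at the edge.

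Kif1a is the kinesin-3 motor that carries precursors of synaptic vesicles and dense core vesicles along axons. Its gene lies on the minus strand of chromosome 1 from 93015464 to 93101951, and the sites were placed on its GENCODE transcript Kif1a-204, with 48 exons, 8206 bases and 1697 codons. Of its 15 sites 14 lie in coding sequence, 1 in the 5' UTR and 0 in the 3' UTR. They begin at codon 46, end at codon 1175, and 11 of the 14 coding sites fall in the first 25% of the coding sequence, which opens with the motor domain. Those in exons 8 and 9 lie close together, at bases 863 to 947 of the transcript, and are not independent positions. The rate for all listed coding sites was not computed. By mean, 5 of the 14 coding sites were higher in aged cells, where 57.8% of the table's coding sites were, and the 5' UTR site was lower. By share of methylated cells 13 of the 14 coding sites were higher, close to the 94.7% of all coding sites, as was the 5' UTR site. The intervals lay apart and higher at 9 of the 14 coding sites, where 63.6% of all coding sites did so.

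The Kif1a site with the largest difference of all 28 is in exon 22, codon 687, at 93055713. There 90 of 2623 young cells (3.43%, 2.77 to 4.20) and 162 of 846 aged cells (19.1%, 16.5 to 22.0) were methylated. The fraction of C-to-U inside those cells was 45.6% for young and 64.1% for aged, and the mean over all cells was 1.56% and 12.3%. Aged cells were thus above young cells in both parts, and the share carried most of the difference, at 5.58 times the young share (exact interval of the ratio 4.29 to 7.30) against 1.41 times for C-to-U within cells. The increase ranks 3 among the 2055 listed sites, with 1.15e-24 as adjusted p in the authors' deposited table.

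The Kif1a site methylated in the most young cells is in exon 8, codon 254, at 93073846, the second of the pair that shares GTGAACGAG. It had 167 methylated young cells (6.37%, 5.46 to 7.37) and 164 methylated aged cells (19.4%, 16.8 to 22.2). C-to-U within those cells was far below that at 93055713, at 9.79% (young) and 13.2% (aged). The mean was 0.623% and 2.57%, or 2.04 as a log2 ratio, and the authors' deposited table gives it an adjusted p of 2.20e-37. In aged cells, then, this pair of sites was methylated in close to the same share of cells, while C-to-U within the cells differed.

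The edited C at 93073842 lies 4 bases downstream of 93073846 in the same exon and follows a G. It was methylated in 33 young cells (1.26%, 0.868 to 1.76) and 61 aged cells (7.21%, 5.56 to 9.17), a ratio of 5.73 (3.69 to 9.04). C-to-U within those cells differed in the other direction, at 4.01% for young and 0.459% for aged, and the mean was 0.0505% and 0.0331%. Neighbouring sites on the same RNA are not independent, and the table does not say whether the same cells carry both.

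The site at 93078807, in exon 3 and codon 46, had the highest ratio of shares in the whole table. It rests on 5 methylated young cells (0.191%, 0.0619 to 0.444) against 41 aged cells (4.85%, 3.50 to 6.52), a ratio of 25.4 with an interval from 10.1 to 82.4. Their C-to-U was 55.4% at the young age and 79.2% at the aged, and the mean was 0.106% and 3.84%, or 5.18 as a log2 ratio. The authors' deposited table gives 1.16e-08 as its adjusted p. The intervals of the shares are far apart although the young count is small. The site is listed through its aged cells, however, and neither these intervals nor the rank allow for that selection. The site at 93066129, in exon 13 and codon 366, had means of 0.321% (young) and 1.59% (aged). Its share was 0.457% (0.237 to 0.798) and 2.60% (1.64 to 3.91), while C-to-U within the cells was high at both ages, at 70.1% and 61.0%. The fifth Kif1a site with a higher mean, at 93073862 in exon 8, had 0.0459% and 0.0700%, and the intervals of its shares, 0.349% to 0.989% and 0.735% to 2.46%, overlapped.

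A different pattern was seen at 93054341, in exon 24 and codon 779, the 1 Kif1a site with a lower share in aged cells. It was methylated in 77 young cells (2.94%, 2.32 to 3.66) and 4 aged cells (0.473%, 0.129 to 1.21), so that the aged share was 0.161 times the young share (0.0428 to 0.429). C-to-U within the young cells was 80.1%, the highest of the 28 sites at that age, and within the 4 aged cells 25.5%. The mean was 2.35% and 0.121%, a log2 ratio of -4.29, and the adjusted p in the authors' deposited table was 0.00560. Its edited C follows a C and not an A. It lies 275 bases from the site at 93055713 along the transcript, so that a site far higher and a site far lower in aged cells lay in neighbouring stretches of 1 coding sequence.

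The run of sites in exons 9 and 10 formed the low end of Kif1a. The 4 sites of exon 9, at 93073093, 93073090, 93073076 and 93073075, share an exon of 66 bases, and the exon 10 site at 93072311 sits in an exon of 18 bases. At these 5 sites between 9 and 16 young cells and between 12 and 21 aged cells were methylated. The share was higher in aged cells at each of them, and the intervals lay apart at 93073075 and 93072311. Within those cells C-to-U ran from 3.04% to 6.03% at the young age and from 0.429% to 0.554% at the aged, so that the mean, at most 0.0368% in young cells, was lower in aged cells at each. Each of these values rests on few cells.

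The other 3 Kif1a sites had a higher share and a lower mean in aged cells. In the 5' UTR, at 93082439, the share was 0.496% (0.264 to 0.846) in young and 2.48% (1.54 to 3.77) in aged cells, and C-to-U within them was 54.2% and 5.59%. At 93077078, in exon 5, the share was 0.534% and 2.25%, and C-to-U within the cells 29.9% and 1.20%. At 93039107, the site farthest along the transcript in exon 35, the share was 0.496% and 2.13%, and C-to-U within the cells 19.0% and 1.80%. The counts at these 3 sites were 13 or 14 young and 18 to 21 aged cells.

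**Figure D2:**
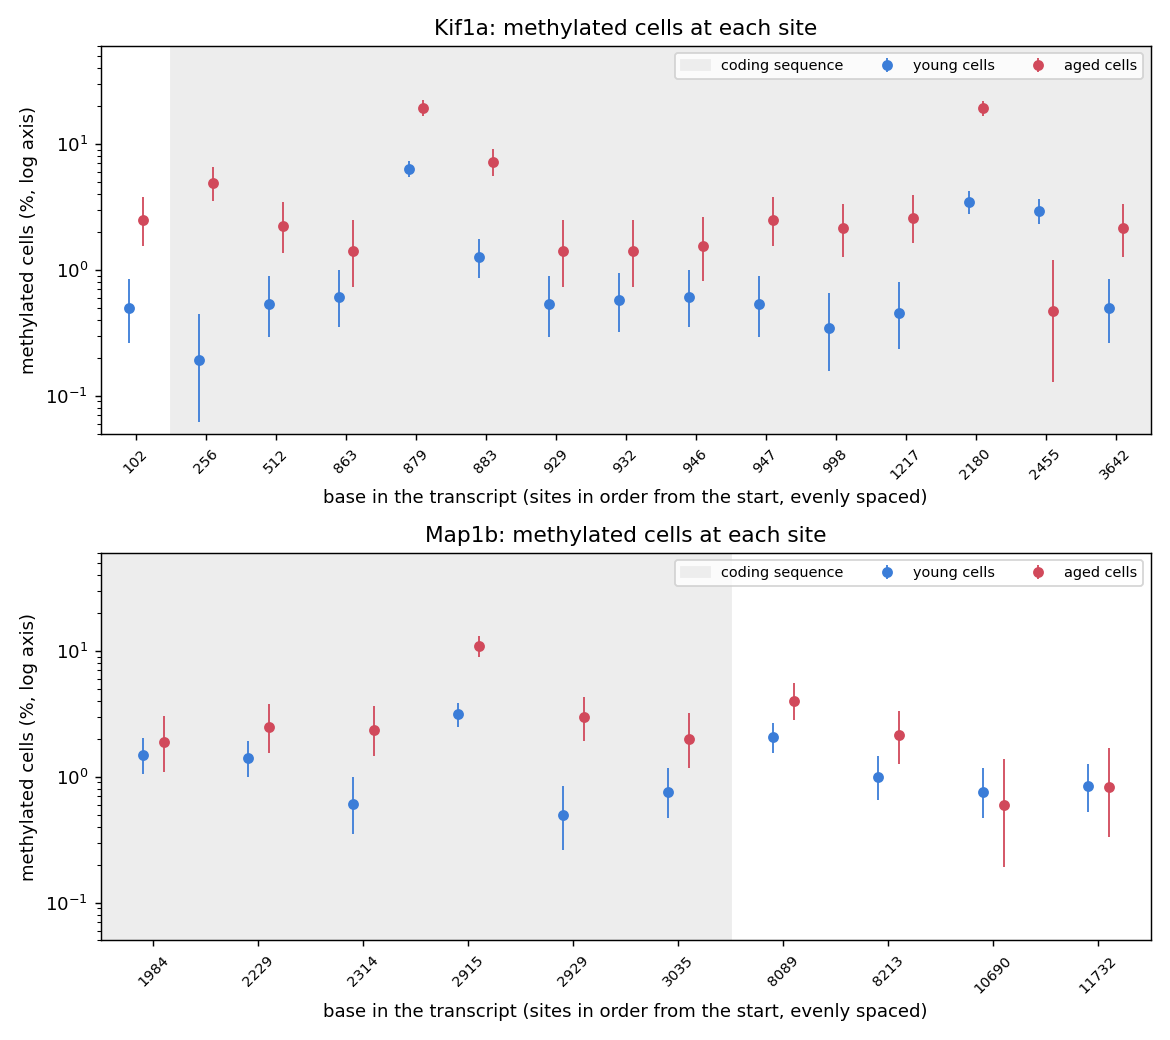
Share of methylated cells (percent, log axis) at the sites of Kif1a (upper panel) and Map1b (lower panel), in order along the transcript and evenly spaced, with young cells in blue and aged cells in red. Bars are exact 95% intervals for counting error and the grey band marks coding sequence. In Kif1a 14 of 15 aged points lie above the young point, with the exception at base 2455 (position 93054341), and in Map1b 8 of 10 do, with the exceptions at the 2 sites nearest the end.

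Kif17 is a kinesin-2 motor that carries the NMDA receptor subunit NR2B in dendrites. Both of its sites lie in exon 5 of its 15-exon transcript on the plus strand of chromosome 4, 4 bases apart, in codons 292 and 293 of 1038. At 138277999, 40 young cells (1.52%, 1.09 to 2.07) and 0 of 846 aged cells were methylated. The limit of 3 cells set for a count of 0 is a share of 0.355%, and the exact interval of 0 of 846 ends at 0.435%. The exact interval of the ratio of shares, counting error of both ages included, ended at 0.300 times the young share. At 138278003, 39 young cells (1.49%, 1.06 to 2.03) and 2 aged cells (0.236%, 0.0286 to 0.851) were methylated, a ratio of 0.159 (0.0186 to 0.614). C-to-U within the young cells was 25.5% at the first and 25.4% at the second site. The means in young cells were 0.389% and 0.378%, and in aged cells 0 and 0.000816%.

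Kif17 was thus lower in aged cells at both listed sites by mean and by share, while each of the other 3 genes had at least 1 site that was higher. Both Kif17 sites are listed through their young cells, a selection that the intervals do not allow for. The 2 neighbouring sites had near-equal counts and fractions in young cells, and since the table does not link cells or reads between sites, they cannot be counted as independent. The adjusted p-values in the authors' deposited table were 0.00160 and 0.0114, the second with C after GA and the first with C after AG.

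Map1b is a large microtubule-associated protein of growing axons, made as a precursor that is cleaved into a heavy and a light chain. Its gene lies on the minus strand of chromosome 13 from 99421446 to 99516540, and the sites were placed on a transcript with 7 exons, 11808 bases and 2464 codons. The 10 sites fall into 2 blocks. The first has 6 sites in exon 5, in codons 644 to 994, and the second 4 sites in the 3' UTR in exon 7. By mean, 4 of the 6 coding sites and 0 of the 4 sites in the 3' UTR were higher in aged cells, against 57.8% of the table's 804 coding sites and 24.1% of its 697 in 3' UTRs. By share 6 of 6 coding sites and 2 of 4 sites in the 3' UTR were higher, against 94.7% and 49.2%. Coding and 3' UTR sites of Map1b thus differed in the same direction as those of the whole table, on few sites.

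The largest Map1b difference was at 99433350, in codon 954, which also had the most methylated cells of the gene at both ages. There 82 young cells (3.13%, 2.49 to 3.87) and 92 aged cells (10.9%, 8.86 to 13.2) were methylated, a ratio of 3.48 (2.55 to 4.74). C-to-U within them was 36.6% (young) and 73.4% (aged), and the mean was 1.14% and 7.98%. Both parts were higher in aged cells, and the rank of the increase among all listed sites was 10. The adjusted p in the authors' deposited table was 5.24e-48.

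The next Map1b site lies 14 bases downstream, at 99433336, and its edited C follows a G. It was methylated in 13 young cells (0.496%, 0.264 to 0.846) and 25 aged cells (2.96%, 1.92 to 4.33). Within them C-to-U was 11.8% and 0.911%, and the mean was 0.0584% and 0.0269%. As at the Kif1a pair in exon 8, a strong site with A before the C and a weak neighbour with G before it had a higher share in aged cells, while C-to-U within cells was higher at the strong site and lower at the weak one. Other neighbours did not share this pattern. The Kif17 sites, with G and A before the C, had 25.5% and 25.4% within young cells and lower shares in aged cells. In exon 9 of Kif1a, 93073093 and 93073076 follow an A and were weak too, at 0.554% and 0.492% within aged cells. At 99433230, 106 bases beyond 99433336 and with A before the C, 20 young and 17 aged cells were methylated, with 13.5% and 0.442% C-to-U within them. The intervals of its shares, 0.466% to 1.18% and 1.17% to 3.20%, met at their ends, and the ratio was 2.64 (1.30 to 5.30).

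The 3 coding sites upstream had a higher mean in aged cells by smaller amounts. At 99433951 the share was 0.610% (0.349 to 0.989) in young and 2.36% (1.45 to 3.63) in aged cells, with 29.4% and 27.0% C-to-U within cells and means of 0.180% and 0.639%. At 99434036 the mean was 0.120% and 0.205%, and at 99434281 it was 0.105% and 0.230%. The intervals of the shares overlapped at the latter pair of sites, whose ratios were 1.76 (0.979 to 3.09) and 1.27 (0.664 to 2.33).

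In the 3' UTR of Map1b the sites lie 643, 767, 3244 and 4286 bases after the end of the coding sequence. At the 2 nearer sites, 99425165 and 99425041, the share was higher in aged cells, at 4.02% (2.80 to 5.57) against 2.06% (1.55 to 2.68) and at 2.13% (1.27 to 3.34) against 0.991% (0.648 to 1.45). At the 2 farther sites, 99422564 and 99421522, the shares were 0.762% and 0.591%, and 0.839% and 0.827%, in young and aged cells, and their intervals overlapped almost wholly. The last of these lies 76 bases from the end of the transcript. C-to-U within methylated cells was lower in aged cells at all 4 sites, at 10.9% and 2.35%, 9.18% and 1.10%, 26.1% and 1.47%, and 44.2% and 16.1%, in the order of the transcript. The 2 farther sites rest on 5 and 7 aged cells. The authors' deposited table gives them adjusted p-values of 0.00707 and 0.00419, although the shares were close.

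Map1a is the relative of Map1b that is abundant in mature dendrites. Its site is on the plus strand of chromosome 2 at 121300427, in exon 5 of 7, codon 575 of 3014. It was methylated in 64 young cells (2.44%, 1.88 to 3.11) and 53 aged cells (6.26%, 4.73 to 8.11), a ratio of 2.57 (1.75 to 3.75). C-to-U within them was 28.8% and 61.9%, and the mean was 0.702% and 3.87%, or 2.46 as a log2 ratio. Its adjusted p in the authors' deposited table was 2.78e-13. Both parts were higher in aged cells, and the intervals of the shares lay apart. C-to-U within cells took a larger part here, at 2.15 times the young value, than at Kif1a 93055713, where it was 1.41 times.

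**Figure D3:**
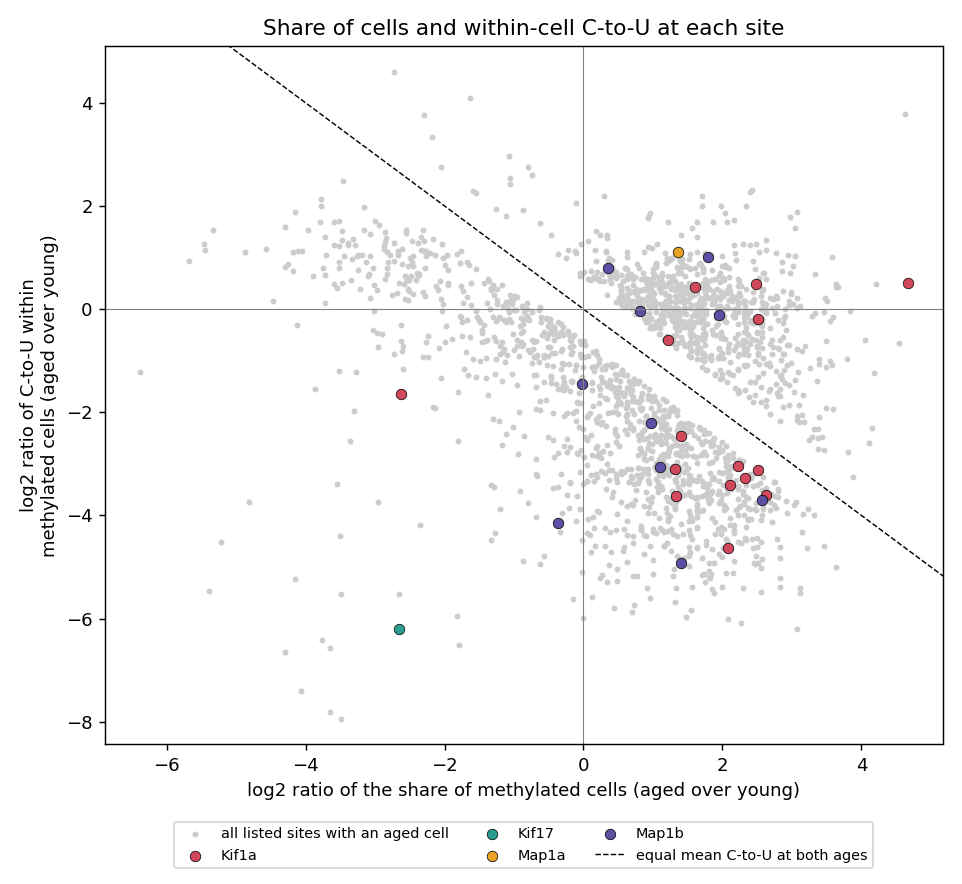
Log2 ratio of the share of methylated cells (x axis) against log2 ratio of C-to-U within methylated cells (y axis), aged over young, at each listed site with a methylated aged cell. Grey points are all 2036 such sites, coloured points the 27 of the 4 genes, and the dashed line marks equal means, with an empty band beside it because the table holds nothing below an absolute log2 ratio of 0.58 in the mean. Most Kif1a points lie at the lower right, with more methylated cells and less C-to-U within them, and the Kif1a point farthest right is position 93078807.

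The sites of the 4 genes differed in how far they lie from an exon junction. All 15 Kif1a sites lie within 100 bases of a junction in the spliced transcript, at 4 to 82 bases, in exons of 18 to 179 bases. The 10 Map1b sites lie 797 to 4440 bases from a junction, in exons of 6490 and 4516 bases, and the Map1a site lies 1159 bases from one in an exon of 8104 bases. The Kif17 sites lie 204 and 208 bases from a junction in an exon of 453 bases. Over all listed coding sites the median distance was 60.5 bases, and 67.5% of those with a junction lay within 100 bases. In an internal exon of at most 179 bases no base can lie more than 100 bases from a junction. Within the exons that hold its sites, the Kif1a count therefore follows from exon length. That Kif1a has no listed site in its 3' UTR does not follow from this, and was not tested. Map1b and Map1a carry their sites deep inside very long exons.

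Among the 19 sites with AAC or GAC, 9 had a higher mean in aged cells and 10 a lower one, and among the 9 without it, 1 was higher and 8 lower. The 1 without it is Map1b 99433951, with ACC. By share, 16 of the 19 and 7 of the 9 were higher. By C-to-U within cells, 6 of the 19 were higher and 0 of the 8 others with a methylated aged cell. The split by mean ran through the whole table as well: 48.3% of all placed sites with AAC or GAC had a higher mean, and 25.7% of those without. By share the table's rates were 77.1% and 71.6%, and by C-to-U within cells 35.6% and 23.3%. The sites of the 4 genes lie in part on the same RNA, and no test was made.

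C-to-U within methylated cells spread more widely in aged than in young cells. Over the 28 sites it ran from 3.04% to 80.1% in young cells, with a median of 16.2%. In aged cells it ran from 0.345% to 79.2%, with a median of 2.35%. It was under 2% at 13 of the 27 sites in aged cells and at 0 of 28 in young cells. Of all listed sites with a methylated aged cell 34.9% were under 2%, and of all listed sites 147 were in young cells, so such low values are also common outside these genes. The 13 sites were 8 in Kif1a, 4 in Map1b and 1 in Kif17. Each of them had a lower mean in aged cells, which follows almost directly from so low a factor. The table holds no read depth to set beside these values.

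**Figure D4:**
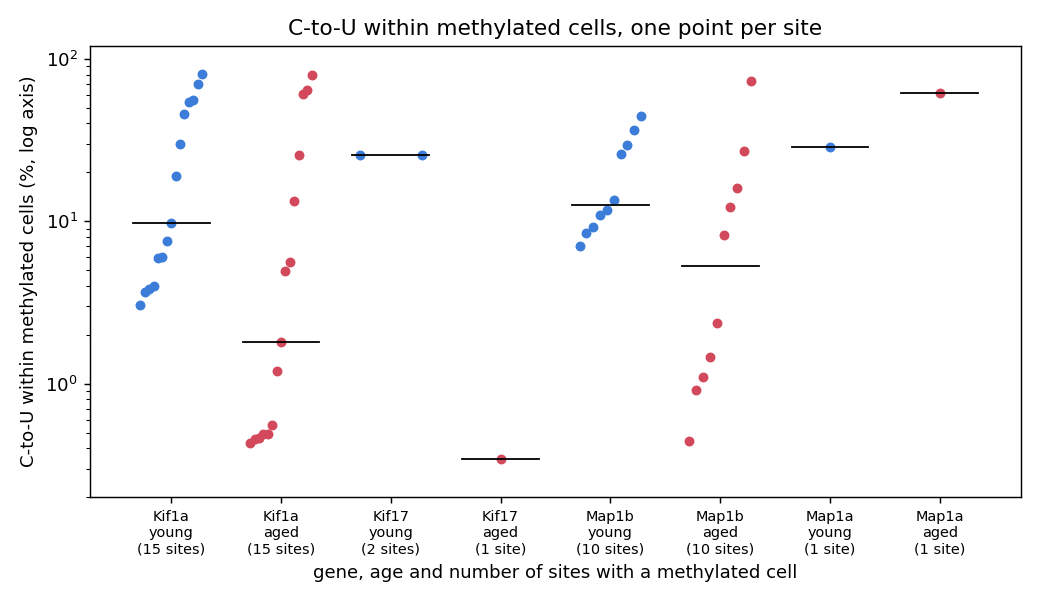
C-to-U within methylated cells (percent, log axis) for each gene and age, with 1 point per site, sorted within each group, and a black line at the median. The young Kif1a points run from 3.04% to 80.1%, while 8 of 15 aged points are under 2% and 3 are above 60%.

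Over its sites Kif1a had a median log2 ratio of -0.95 for the mean, 2.10 for the share and -3.04 for C-to-U within cells. For Map1b the medians were -1.18, 1.03 and -1.83, and over all listed sites with a methylated aged cell they were -0.87, 1.14 and -0.84. The medians of the mean were not steady. Over sites with at least 10 methylated cells at each age the Map1b median was -0.17 and the Kif1a median -0.89. For Map1b 8 sites were left, 4 of them higher by mean. Its median thus fell between a higher and a lower site and gives no direction. With 0.1% added to both means they were -0.48 and -0.13. The genes with at least 5 listed sites that lay nearest to Kif1a in the medians of both parts were Camk2a (13 sites, distance 0.132 in log2 units), Srrm2 (23 sites, 0.258) and Hnrnpu (7 sites, 0.310). Nearest to Map1b were Malat1 (87 sites, 0.163), Syt1 (24 sites, 0.185) and Rbfox3 (5 sites, 0.244). Map1a and Kif17, with 1 usable site each, had no near neighbour, the closest being Ptprd at 1.01 and Cyfip2 at 4.41.

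Among other kinesin genes, 5 of 40 have a listed site, namely Kif1b, Kif3c, Kif5c, Kif21a and Kif24. The table names 789 genes but not those that could have been listed. This count and those of the next paragraph can therefore not be called many or few. At the site with the largest difference each of the 5 had a higher mean in aged cells, as had 55.8% of all 789 genes of the table. Of their 11 sites, 63.6% of which are coding and the others in 3' UTRs, 7 were higher. The table's rates were 57.8% of coding sites, 24.1% of 3' UTR sites and 41.5% of all listed sites. Kif5c, a heavy chain of conventional kinesin, had means of 1.74% (young) and 4.61% (aged), with 90 (3.43%, 2.77 to 4.20) and 45 (5.32%, 3.91 to 7.05) methylated cells, whose intervals overlap. Another coding site of Kif5c was also higher by mean, and its 3' UTR site was lower, with 68 young and 12 aged methylated cells. Kif3c, a kinesin-2 motor like Kif17, had 0.970% and 2.61%, in the direction opposite to Kif17. Kif1b, the nearest relative of Kif1a named here, had 0.331% and 0.984% at its largest site, and its other 2 sites were lower in aged cells.

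Of the 23 dynein and adaptor genes, 6 have a listed site, and in 5 of them the largest site was higher in aged cells, against 55.8% of all genes. Dctn1, a subunit of dynactin, had means of 1.63% and 3.54%, and the dynein intermediate chain gene Dync1i2 0.212% and 2.13%, while its other site, with 0.0657% and 0.0250%, was lower. Of 39 other microtubule-associated protein genes, 12 have a listed site, with the largest site higher in 9 and lower in 3. Map2, the dendritic microtubule-associated protein, had a mean of 0.774% and 1.70% at 1 coding site and 0.0642% and 0.0314% at another, while Mapt, which encodes tau, had 0.410% and 0.206% at a 3' UTR site. Dpysl2, which encodes the tubulin-binding protein CRMP2, had 141 methylated young cells and 0 of 846 aged cells at a 3' UTR site, where the 3-cell limit is 0.355% and the exact interval ends at 0.435%. Its other listed site had 54 young and 12 aged methylated cells. None of 16 tubulin genes and 0 of 4 neurofilament genes have a listed site, and here too the rate among all genes is unknown. Over all 39 sites of these other microtubule genes, of which 61.5% are coding, 24 had a higher mean and 33 a higher share at the aged age, beside 57.8% and 94.7% of all coding and 41.5% and 75.4% of all listed sites. Their median log2 ratio of the mean was 1.13, against -0.97 at the kinesin and MAP1 sites with a methylated aged cell. It was -0.87 over all listed and 0.95 over all coding sites with such a cell. The table holds no absolute ratio below 0.58, so a median largely follows the direction of most sites. The gap between 1.13 and -0.97 was not tested, and Kif1a supplies 15 of the 28 sites.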

How the data were processed

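The data are the authors' deposited table of sites that differ between aged and young cells, found by the Bullseye pipeline per the labels' design text. The submitters' processing notes name STAR 2.7.5 and mm10. No source read here gives the authors' test, filters or handling of depth. The design text speaks of sorted nuclei, while the sample protocols describe fixed whole cells, and the latter were followed. The authors' counts give the methylated cells of each age. The deposited percent is the share of an age's cells that are methylated. The authors' average fraction of C-to-U is printed here as a percent. From its column name alone it was read as an average over every cell, and C-to-U within methylated cells rests on this reading. So computed, C-to-U within methylated cells reached at most 98.9% in young and 100% in aged cells over all listed sites. The deposited log2 ratio is young over aged, and its sign was turned. The p-values, raw and adjusted, are the authors' own.

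From these, C-to-U within methylated cells (the mean divided by the share), ratios, exact Clopper-Pearson intervals at 95% (scipy 1.17.1, pandas 2.3.3) and a limit of 3 counts for a count of 0, below the end of the exact interval, were computed. The interval of a ratio of shares is the exact binomial interval of the aged cells among all methylated cells. Deposited positions were read as counted from 0 and are printed counted from 1: the base was then C at 28 of 28 sites, against 7 when read as counted from 1. Each site took its place from the highest-ranked GENCODE M21 transcript with an exon there. The calculations were tested on simulated data. The 4 genes, the gene lists and the rules were chosen with earlier results of these data known. Sites described in full are, per gene, the one with the largest difference and the one with most methylated young cells, and the remaining sites follow in brief. Other genes are named from the fixed lists of microtubule genes (largest site) or as the 3 nearest in both medians. Alternatives were another measure of direction, at least 10 methylated cells at each age, merging of sites within 10 bases, a stricter adjusted p, added constants, another transcript and the other position count.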

Additional observations from a re-analysis of the deposited data

How the results depend on the processing

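No paired analysis was possible because the table gives 1 pooled value per age. For the same reason no library could be left out. The direction depended on the measure. Of the 28 sites 10 were higher in aged cells by mean, 23 by share of methylated cells and 6 by C-to-U within them. For Kif1a the counts were 5, 14 and 3, and for Map1b 4, 8 and 2. With at least 10 methylated cells at each age, with merged neighbours or with an adjusted p of at most 0.01, counts stayed within 1.5 times the main count. The median log2 ratio of the mean kept its sign in each gene and shrank with added constants. With 0.01% added it was -0.55 for Kif1a, -1.03 for Map1b, 2.45 for Map1a and -5.24 for Kif17, and with 0.1% added -0.13, -0.48, 2.31 and -2.27, which follows from the small means. With at least 10 methylated cells at each age it was -0.89 for Kif1a and -0.17 for Map1b, where 2 sites with a lower mean dropped out, and Kif17 had no site left. Of the 8 Map1b sites left 4 were higher by mean, so the sign of that median gives no direction. Without the site of largest difference it was -0.96 for Kif1a and -1.24 for Map1b, and Map1a had no other site. Reading positions as counted from 1 left 0 sites with an A before an edited C, since the base was then seldom C, and left the count in coding sequence at 23. The precision is limited by 846 aged cells and by unknown read depth.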
